A study of Arabidopsis thaliana with 12 samples.

Results

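The 37 genes described here encode subunits of the plant photosystems that are made from nuclear genes and proteins of their light-harvesting antenna. They were taken from all 32678 gene identifiers in the deposited tables by a list of AGI identifiers of photosystem subunit and light-harvesting protein genes. The list does not hold every copy of a family: LHCB1.4, LHCB1.5, LHCB2.3 and LHCB4.3 are not among the members and are described at the end. They comprise 14 antenna genes (4 LHCA genes for photosystem I and 10 LHCB genes for photosystem II), 12 genes for photosystem I, 10 genes for photosystem II, and PETC, the gene of the Rieske iron-sulfur protein of the cytochrome b6f complex. RNA had been sequenced from Arabidopsis thaliana seedlings of 2 genotypes, the Col wild type and the mutant clf, which carries a lesion in CURLY LEAF (CLF), a histone methyltransferase gene of Polycomb repressive complex 2. All seedlings had grown for 12 days on B5 medium at 22 °C under 16 h of light and 8 h of dark, and then for 3 days on medium that was either iron sufficient or iron deficient. Each of the 4 groups (wild type on sufficient iron, wild type on deficient iron, clf on sufficient iron, clf on deficient iron) held 3 libraries. The clf allele was not given in the sources used here, nor was the origin of the replicates, so the p-values below measure the spread between these libraries, which may be partly technical.

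Photosystem II withdraws electrons from water, the cytochrome b6f complex passes them on to plastocyanin, and photosystem I lifts them to ferredoxin. Both photosystems collect light through LHC proteins, which bind chlorophyll and surround the reaction centres in the thylakoid membrane of the chloroplast. Photosystem I, the Rieske protein and ferredoxin carry iron-sulfur clusters, and the photosynthetic electron transport chain is a main user of iron in leaves. The reaction centre proteins themselves are plastid-encoded and their genes are not reported here.

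The labels disagree on the tissue, since the titles and source names say shoot whereas a tissue tag and the extraction text say root. The 7 leaf markers examined summed to between 33490 and 49550 CPM (counts scaled to the library size) in every library. Of 8 root markers, PYK10 stood at 286.7 to 705.6 CPM in every library. No other root marker passed 5.88 CPM in any library, and 3 were at 0 counts in at least 1 library. The libraries are therefore described as shoot. CLF itself stood at 13.1 to 17.1 CPM in the 6 wild-type libraries and at 3.09 to 5.39 CPM in the 6 clf libraries, and it was lower in clf on sufficient iron (log2 fold change -1.72, edgeR adjusted p 0.00239) and on deficient iron (log2 fold change -1.86, edgeR adjusted p 0.00129). Libraries held 16092041 to 29400813 counts, and all 6 iron-deficient libraries were deeper than every iron-sufficient one; the part of depth in the results was not tested. In 4 libraries (wild-type replicate 3 with sufficient iron, wild-type replicate 2 with deficient iron, and both clf libraries numbered 3) evening genes of the circadian clock were high. TOC1 stood at 30.2 to 59.6 CPM there against 9.44 to 13 CPM in the other 8 libraries, LUX at 16.0 to 29.6 against 5.96 to 11.5 CPM, and PRR5 at 3.04 to 28.2 against 0.0899 to 0.947 CPM. Values of GI (12.7 to 84.95 against 2.82 to 17.6 CPM) and ELF4 (0.41 to 1.03 against 0.0552 to 0.502 CPM) overlapped. In those 4 libraries 31, 34, 34 and 25 of the 37 members were above their own group mean. Of the other 8 libraries, clf replicate 1 with deficient iron had 32 members above its group mean and the rest had 0 to 21. The counts of calls in each comparison are also given without the 4 libraries. The other 8 libraries still differed by iron in some clock genes. LHY stood there at 227 and 213 CPM on sufficient and 443 and 394 CPM on deficient iron in the wild type. In clf it stood at 205 and 204 and then 379 and 330 CPM. GI stood at 16.96 and 14.74 against 4.05 and 2.82 CPM in the wild type. In clf GI stood at 17.59 and 13.16 against 8.5 and 7.35 CPM, and TOC1 overlapped in both genotypes. Leaving out the 4 libraries does not remove these differences. The part of the clock shift in the results was not tested.

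The antenna and photosystem genes were among the most abundant transcripts of every library. Levels of different genes are compared here as deposited FPKM values (fragments per kilobase of gene, scaled to the library total), which correct for gene length. LHCB1.3 (AT1G29930), a gene of the main trimeric antenna protein of photosystem II, ranked 1 or 2 of 32678 identifiers in every library, and LHCA4 (AT3G47470), an antenna protein of photosystem I, ranked 6 or 7. The member with the lowest level was PSAE2 (AT2G20260), whose rank lay between 152 and 356. Among photosystem II genes the level was highest for PSBR (AT1G79040), a small subunit on the lumenal side, at 4754 to 6453 FPKM. PSBS (AT1G44575), which serves the dissipation of excess light energy as heat, stood at 782 to 1272 FPKM.

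**Figure D1:**
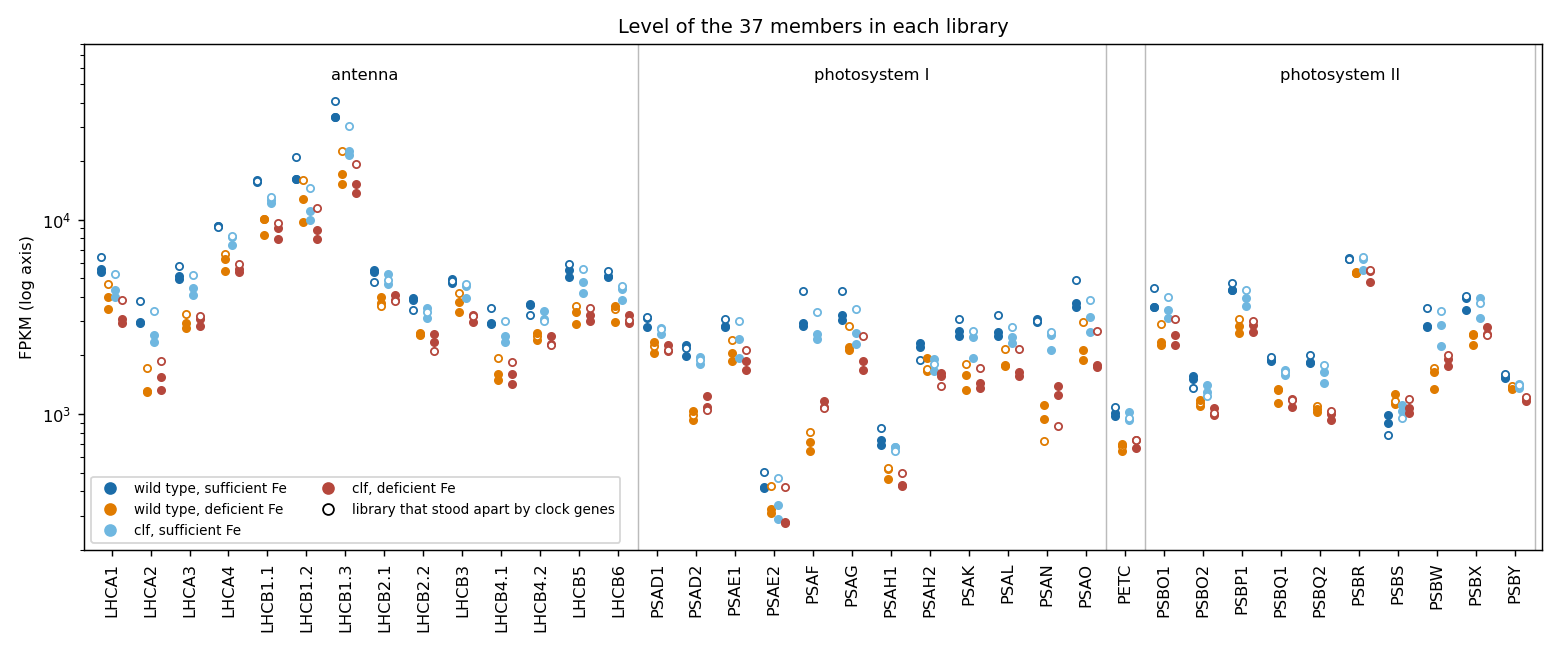
Deposited FPKM (log axis) of the 37 members in each of the 12 libraries, one point per library, coloured by group and ordered by class. Open points are the 4 libraries with high evening clock genes. Most members sit lower in the iron-deficient libraries of both genotypes, with the widest separation at PSAF and PSAN, and PSBS does not.

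The first comparison asked how the members responded to iron deficiency in the wild type. Of 37 members, 33 fell and none rose at an edgeR adjusted p under 0.05, whereas 4.52% of the 19148 genes tested fell. CPM values of the 2 iron conditions did not overlap for 36 members that were lower under deficiency, against 13.6% of all genes tested, and for 1 member, PSBS, that was higher, against 14.7%. The median log2 fold change over the members was -0.83, a 1.78-fold lower level, beside 0.01 over all genes tested. By class, 13 of 14 antenna genes fell (median -0.86), 10 of 12 photosystem I genes (median -0.82), 9 of 10 photosystem II genes (median -0.85) and PETC (-0.84). The 4 members that were not called were LHCB1.2, PSAE2, PSAG and PSBS. Without the 4 libraries with high evening clock genes 36 members fell, when 7.7% of all genes tested did, and PSBS alone was not called. When counts were scaled to library totals, the median was -0.59 over the members and 0.25 over all genes tested, and the share of higher genes among all calls went from 50.5% to 85%; values here are relative to the TMM scale. Fewer photosynthetic cells and less of these RNAs per cell cannot be told apart in such bulk samples. Of the 7 leaf markers, 2 also fell in the wild type, AGT1 (-0.80) and CA1 (-0.59), with a list median of -0.31, and the summed level of all 7 was 44750 to 49550 CPM on sufficient and 34120 to 39060 CPM on deficient iron; their part in the result was not tested.

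In clf, 19 of 37 members fell under iron deficiency and none rose, when 0.768% of all genes tested fell. CPM values did not overlap for 34 members, all lower under deficiency, against 10.6% of all genes. The median log2 fold change was -0.66 over the members and -0.02 over all genes tested. The calls covered 10 of 14 antenna genes (median -0.66), 4 of 12 photosystem I genes (PSAD2, PSAF, PSAH1 and PSAN; median -0.70), 4 of 10 photosystem II genes (PSBO2, PSBP1, PSBQ1 and PSBQ2; median -0.60) and PETC. Same-numbered clf replicates deviated together, and with the replicate number as a block in a fit of the 6 clf libraries 29 members fell, against 3.85% of genes tested; LHCB1.2, LHCB2.1, PSAE1, PSAE2, PSAH2, PSBR, PSBS and PSBY did not pass there, LHCB2.1 losing its call (adjusted p 0.0586). Replicate 3 of both clf groups is among the 4 libraries with high evening clock genes, so the block also takes up that difference. Without the 4 libraries with high evening clock genes the count was 27 (3.72% of genes), with a term for those libraries 36 (4.19%), and with DESeq2 31 (2.28%). Leaving out 1 library at a time gave 2 to 21 calls, with 0.226% to 0.967% of genes called lower; it was 3 or fewer without replicate 2 or 3 of clf on sufficient iron or without replicate 2 of clf on deficient iron. Of the 7 leaf markers 1 fell in clf, CA1 (-0.94); the list median was -0.28 and the summed level 42380 to 48790 CPM on sufficient and 33490 to 41300 CPM on deficient iron, and their part in the result was not tested.

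All 19 members that fell in clf were among the 33 that fell in the wild type, that is 57.6% of the wild-type list and 100% of the clf list. Over all genes, 126 fell in both genotypes, 14.6% of 865 in the wild type and 85.7% of 147 in clf. These 2 iron comparisons use different libraries but come from the same fit, with a shared estimate of spread for each gene. Their calls are therefore not independent. The log2 fold change was more negative in the wild type for 35 of 37 members, LHCB3 and PSBS being the exceptions, and across the 37 members the 2 sets of log2 fold changes had a Spearman correlation of 0.91, given as a description since the members are not independent. When the iron effect was averaged over both genotypes in the same fit, 35 members fell, against 6.62% of genes tested; PSAE2 and PSBS did not pass the threshold.

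**Figure D2:**
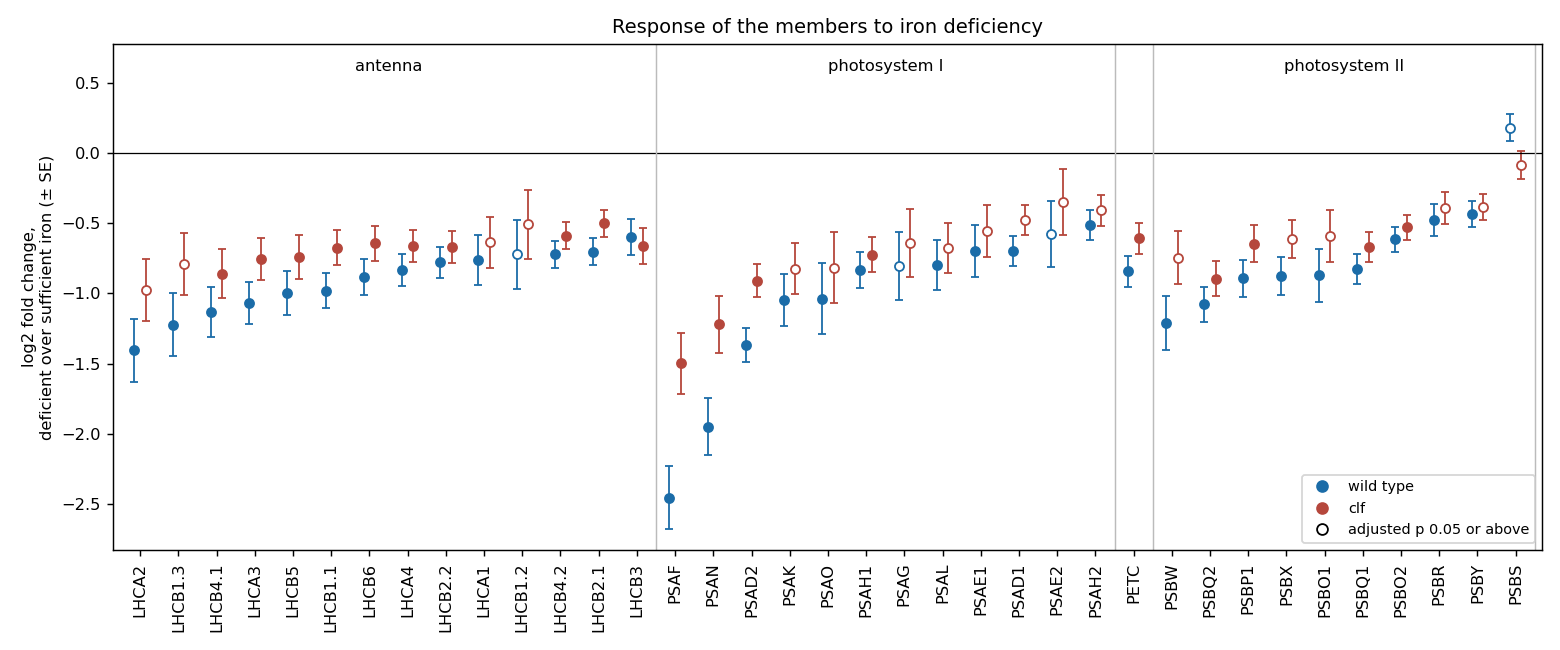
Log2 fold change of each member on deficient over sufficient iron in the wild type and in clf, with the standard error of the edgeR fit on 3 libraries a group, ordered within each class by the wild-type value. Filled points passed an adjusted p of 0.05. PSAF and PSAN lie lowest in both genotypes, and PSBS is the single member above 0 in the wild type.

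All 14 antenna members had negative log2 fold changes in both genotypes. LHCA4, one of the proteins that pair up around photosystem I, stood at 12650, 12830 and 13920 CPM in the wild type on sufficient iron and at 6616, 8187 and 7362 CPM on deficient iron. The clf libraries held 9272, 10550 and 11050 CPM and 6788, 6047 and 6688 CPM, where here and below the 3 values on sufficient iron come first and the 3 on deficient iron second. Every deficient library lay below every sufficient one within a genotype, and LHCA4 fell 1.78-fold in the wild type (log2 fold change -0.83, SE 0.115, adjusted p 0.0018) and 1.58-fold in clf (log2 fold change -0.66, SE 0.115, adjusted p 0.0191). All 4 LHCA genes fell in the wild type, with LHCA2 (AT3G61470) falling the most (log2 fold change -1.41, SE 0.223, adjusted p 0.00367); in clf LHCA3 and LHCA4 fell, and LHCA1 and LHCA2 had log2 fold changes of -0.64 and -0.97 at adjusted p 0.118 and 0.0616.

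Among the genes of the trimeric antenna of photosystem II, LHCB1.1 (AT1G29920) stood at 19830, 20480 and 22380 CPM on sufficient and 9384, 11520 and 10870 CPM on deficient iron in the wild type. Its clf values were 14160, 15160 and 16390 and 10220, 8326 and 10100 CPM. Neither pair of groups overlapped, and LHCB1.1 fell in the wild type (log2 fold change -0.98, SE 0.125, adjusted p 0.00116) and in clf (log2 fold change -0.67, SE 0.125, adjusted p 0.0272). LHCB1.2 (AT1G29910) stood at 17780, 17870 and 25690 CPM on sufficient and 9462, 15810 and 11990 CPM on deficient iron in the wild type, and at 10010, 11510 and 15870 and 8664, 7172 and 10460 CPM in clf. In each group of LHCB1.2 the library with high evening clock genes held the highest value, its clf groups overlapped, and it was not called in the wild type (log2 fold change -0.72, SE 0.246, adjusted p 0.0978) or in clf (log2 fold change -0.51, SE 0.245, adjusted p 0.373). LHCB1.3 stood at 38240, 38360 and 51250 CPM on sufficient and 15240, 22950 and 16600 CPM on deficient iron in the wild type, and at 22120, 24110 and 33460 and 15200, 12790 and 18050 CPM in clf. It fell in the wild type (log2 fold change -1.22, SE 0.222, adjusted p 0.0076), and in clf its groups did not overlap without reaching the threshold (log2 fold change -0.79, SE 0.22, adjusted p 0.112). LHCB1.1, LHCB1.2 and LHCB1.3 lie side by side on chromosome 1 and share 95.6% to 96.4% of 804 coding bases, with identical runs of up to 119 bases. The other 2 copies, LHCB1.4 (AT2G34430) and LHCB1.5 (AT2G34420), which are not members, lie on chromosome 2 and share 87.4% to 91.1% of aligned coding bases with these 3, with identical runs of up to 50 bases. The split of counts between the 5 copies is uncertain where reads match several of them; how those were treated was not given in the sources used here.

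LHCB2.1 (AT2G05100), another major trimer gene, stood at 6538, 6449 and 6327 CPM in the iron-sufficient wild type and at 3931, 3852 and 4089 CPM under deficiency, and in clf at 5088, 5921 and 5743 and then at 4313, 3766 and 3778 CPM in the same order of conditions. LHCB2.2 (AT2G05070) stood at 4546, 4483 and 4373 CPM in the iron-sufficient wild type and at 2589, 2668 and 2554 CPM under deficiency, and in clf at 3279, 3825 and 3807 and then at 2640, 2223 and 2007 CPM in the same order of conditions. In each genotype every deficient library lay below every sufficient one for both genes, which fell by 0.70 and 0.78 on the log2 scale in the wild type (adjusted p 0.00173 and 0.0023) and by 0.50 and 0.67 in clf (adjusted p 0.033 and 0.0173). They share 92.9% of aligned coding bases, so their counts are uncertain in the same way. LHCB3 (AT5G54270), the third trimer protein, fell in the wild type (-0.60) and in clf (-0.66). LHCB4.2 (AT3G08940), a gene of the monomeric antenna protein CP29, stood at 4610, 4586 and 4474 CPM on sufficient and 2661, 2859 and 2786 CPM on deficient iron in the wild type. The clf libraries held 3553, 3988 and 3730 and 2788, 2365 and 2351 CPM. The iron conditions did not overlap in either genotype, and LHCB4.2 fell 1.65-fold in the wild type (log2 fold change -0.72, SE 0.0962, adjusted p 0.00146) and 1.5-fold in clf (log2 fold change -0.59, SE 0.096, adjusted p 0.0153). Its paralogue LHCB4.1 (AT5G01530) stood at 3877, 3843 and 5156 CPM in the iron-sufficient wild type and at 1749, 2316 and 1815 CPM under deficiency, and in clf at 2854, 3139 and 3902 and then at 1868, 1557 and 2027 CPM in the same order of conditions. LHCB4.1 fell by 1.13 and 0.86 on the log2 scale in the wild type and clf, and LHCB5 and LHCB6, the other monomeric antenna genes, by 0.99 and 0.88 in the wild type and by 0.74 and 0.64 in clf.

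In photosystem I the falls were spread widely, from -0.51 for PSAH2 to -2.46 for PSAF in the wild type. PSAF (AT1G31330), the subunit that docks plastocyanin on the lumenal side, stood at 2913, 3039 and 4886 CPM in the wild type on sufficient iron and at 656, 749 and 568.5 CPM on deficient iron. The clf libraries held 2280, 2506 and 3391 CPM and 1057, 920.4 and 918 CPM. It fell 5.49-fold in the wild type (log2 fold change -2.46, SE 0.225, adjusted p 0.000119) and 2.82-fold in clf (log2 fold change -1.50, SE 0.218, adjusted p 0.00782), and its rank by FPKM among all identifiers moved between 21 and 119. PSAN (AT5G64040), a peripheral subunit on the same lumenal side, stood at 2595, 2706 and 2932 CPM on sufficient and 724, 575 and 832 CPM on deficient iron in the wild type. Its clf values were 1712, 2092 and 2276 and 1078, 905 and 626 CPM. The deficient libraries of PSAN lay below all sufficient ones, and it fell 3.87-fold in the wild type (log2 fold change -1.95, SE 0.206, adjusted p 0.000319) and 2.33-fold in clf (log2 fold change -1.22, SE 0.202, adjusted p 0.0154).

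On the stromal side, PSAD and PSAE help to dock ferredoxin, and each is encoded by a pair of genes. PSAD2 (AT1G03130) stood at 1909, 2196 and 2348 CPM on sufficient and 790.4, 859 and 852 CPM on deficient iron in the wild type, and at 1599, 1789 and 1800 and 1059, 863 and 838 CPM in clf. It fell 2.58-fold (log2 fold change -1.37, SE 0.119, adjusted p 8.49e-05) and 1.88-fold (log2 fold change -0.91, SE 0.118, adjusted p 0.00393), and stayed called in clf whichever library was left out. PSAD1 (AT4G02770) stood at 2531, 2843 and 3176 CPM and 1650, 1825 and 1799 CPM in the wild type, and at 2128, 2349 and 2440 and 1800, 1568 and 1605 CPM in clf. It fell in the wild type (log2 fold change -0.70, SE 0.11, adjusted p 0.00345); in clf its groups did not overlap but the threshold was missed (log2 fold change -0.48, SE 0.109, adjusted p 0.063). PSAE1 (AT4G28750) stood at 2154, 2123 and 2584 CPM and 1252, 1640 and 1335 CPM in the wild type and at 1348, 1727 and 2247 and 1247, 1042 and 1341 CPM in clf. It fell in the wild type (log2 fold change -0.70, SE 0.187, adjusted p 0.0422) but lost the call in 8 of the 12 fits that left out 1 library, and it was not called in clf (log2 fold change -0.55, SE 0.186, adjusted p 0.19). PSAE2 stood at 275, 278 and 365 CPM and 180.1, 253 and 183 CPM in the wild type, and at 173, 211 and 302 and 161, 150.5 and 229 CPM in clf. Its clf groups overlapped and it passed in neither genotype (adjusted p 0.165 and 0.561).

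The remaining photosystem I members sit at its antenna edges. PSAH and PSAL, with PSAO, form the side at which the mobile antenna of photosystem II can dock, and PSAG and PSAK lie towards the LHCA belt. PSAH1 (AT3G16140) stood at 498, 530.2 and 677 CPM on sufficient and 331, 342 and 284 CPM on deficient iron in the wild type, and at 445, 457 and 459 and 275, 253 and 297 CPM in clf. PSAH2 (AT1G52230) stood at 1674, 1592 and 1507 and 1060, 1102 and 1189 CPM in the wild type, and at 1098, 1302 and 1282 and 1027, 922 and 828 CPM in clf. Both fell in the wild type (log2 fold changes -0.83 and -0.51, adjusted p 0.00301 and 0.0164), and PSAH1 alone fell in clf (log2 fold change -0.72, SE 0.127, adjusted p 0.0199; PSAH2 log2 fold change -0.41, SE 0.108, adjusted p 0.0992). PSAK, PSAO and PSAL fell in the wild type by 1.05, 1.04 and 0.80 on the log2 scale, and had log2 fold changes of -0.82, -0.81 and -0.68 in clf without passing. PSAG (AT1G55670) had log2 fold changes of -0.80 and -0.64 with adjusted p 0.0638 and 0.239, and without the 4 libraries with high evening clock genes it was called in both genotypes.

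PETC (AT4G03280), the Rieske protein gene, stood at 1092, 1137 and 1351 CPM on sufficient and 635, 689 and 672 CPM on deficient iron in the wild type. The clf libraries held 952, 1085 and 1052 and 731, 617 and 679.9 CPM. Its groups did not overlap in either genotype, and it fell 1.79-fold in the wild type (log2 fold change -0.84, SE 0.109, adjusted p 0.00123) and 1.52-fold in clf (log2 fold change -0.61, SE 0.108, adjusted p 0.0216).

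In photosystem II, the genes of the oxygen-evolving complex, whose extrinsic proteins shield the manganese cluster, fell in the wild type without exception among PSBO1, PSBO2, PSBP1, PSBQ1 and PSBQ2. PSBQ2 (AT4G05180) stood at 2063, 2090 and 2501 CPM on sufficient and 1016, 1113 and 1021 CPM on deficient iron in the wild type. The clf libraries held 1487, 1747 and 1983 and 989, 861 and 958 CPM. It fell 2.11-fold (log2 fold change -1.08, SE 0.125, adjusted p 0.000619) and 1.86-fold (log2 fold change -0.89, SE 0.125, adjusted p 0.00632), and kept its clf call in all 12 fits that left out 1 library, as PSAD2 did. PSBQ1 (AT4G21280) stood at 1847, 1843 and 2125 CPM and 989.8, 1181 and 1110 CPM in the wild type and at 1423, 1550 and 1581 and 1037, 871 and 955 CPM in clf. It fell in the wild type (log2 fold change -0.83, SE 0.108, adjusted p 0.00127) and in clf (log2 fold change -0.67, SE 0.107, adjusted p 0.0142). PSBO2 (AT3G50820) stood at 2041, 2131 and 2026 CPM and 1308, 1383 and 1361 CPM in the wild type and at 1598, 1791 and 1645 and 1277, 1087 and 1129 CPM in clf. Its replicates lay close together, and it fell 1.53-fold (log2 fold change -0.61, SE 0.0902, adjusted p 0.00248) and 1.44-fold (log2 fold change -0.53, SE 0.0901, adjusted p 0.0178). PSBO1 (AT5G66570) stood at 4773, 4827 and 6670 CPM and 2781, 3520 and 2589 CPM in the wild type, and at 3834, 4354 and 5277 and 3032, 2500 and 3419 CPM in clf. It fell in the wild type (log2 fold change -0.87, SE 0.189, adjusted p 0.0178), and in clf the groups did not overlap but the threshold was missed (log2 fold change -0.59, SE 0.188, adjusted p 0.169). PSBP1 (AT1G06680) fell by 0.89 on the log2 scale in the wild type and by 0.65 in clf.

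Among the other small subunits of photosystem II, PSBW and PSBX fell in the wild type by 1.21 and 0.87 on the log2 scale, and PSBY and PSBR by 0.43 and 0.48, the smallest falls among the called members. None of these 4 was called in clf, where their log2 fold changes were -0.74, -0.61, -0.38 and -0.39. PSBS was the single member with a positive log2 fold change in the wild type. It stood at 1262, 1382 and 1212 CPM on sufficient and 1390, 1476 and 1516 CPM on deficient iron in the wild type, and at 1319, 1459 and 1308 and 1323, 1158 and 1380 CPM in clf. In the wild type every deficient library was above every sufficient one, if barely, but PSBS was not called (log2 fold change 0.18, SE 0.0982, adjusted p 0.284); on library totals it was called higher (log2 fold change 0.42, adjusted p 0.0332). In clf its groups overlapped (log2 fold change -0.08, SE 0.0982, adjusted p 0.792).

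As a share of all counts, the 37 members took 18.4, 18.5 and 20.6% of the 3 wild-type libraries on sufficient iron and 10.5, 13.3 and 11.9% of those on deficient iron. In clf they took 13.9, 15.3 and 17.3% and 10.9, 9.94 and 11.9%. The iron conditions did not overlap in either genotype. Antenna genes made up most of this share, at 13.3, 13.2 and 14.8% and 7.33, 9.59 and 8.46% in the wild type and 9.67, 10.6 and 12.1% and 7.49, 6.82 and 8.33% in clf, and the 3 LHCB1 members (LHCB1.1, LHCB1.2 and LHCB1.3) took 7.01, 7.05 and 8.27% and 3.57, 5.16 and 4.27% in the wild type. With LHCB1.4 and LHCB1.5 added, the 5 LHCB1 copies took 8.86, 8.89 and 11.1% and 4.79, 7.28 and 5.79% in the wild type, again without overlap, and 5.99, 6.58 and 8.66% and 4.93, 4.46 and 6.28% in clf, where the iron conditions overlapped.

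**Figure D3:**
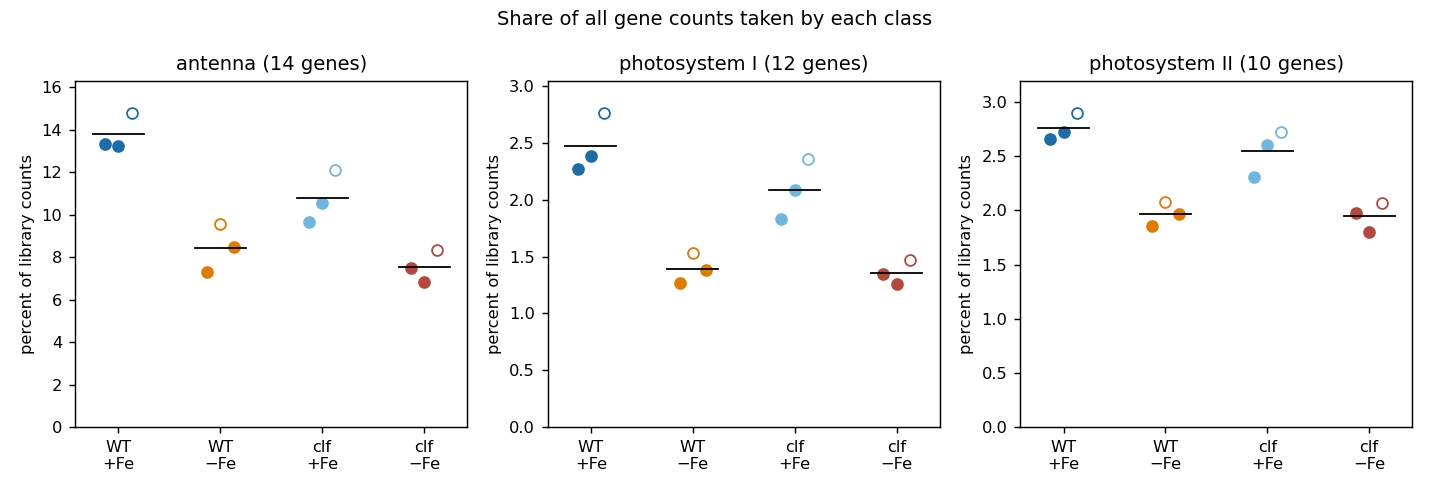
Percent of all counts in a library that fell on the antenna, photosystem I and photosystem II genes, one point per library with the mean of each group as a line and each axis starting at 0 (+Fe sufficient iron, −Fe deficient iron). Open points are the 4 libraries with high evening clock genes. In every panel the deficient libraries of a genotype lie below its sufficient ones.

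The classes were also set against each other within a library. The summed FPKM of the photosystem II genes over that of the photosystem I genes was 0.985, 0.971 and 0.89 in the wild type on sufficient iron and 1.21, 1.11 and 1.18 on deficient iron. In clf the ratio was 1.07, 1.07 and 0.984 and 1.24, 1.21 and 1.17. The ratio was higher in every deficient library than in every sufficient one of its genotype. With PSAF and PSAN left out, a choice made after their values were seen, the ratio over the other 10 photosystem I genes was 1.24, 1.22 and 1.13 against 1.35, 1.2 and 1.31 in the wild type, and 1.34, 1.33 and 1.24 against 1.46, 1.42 and 1.3 in clf, and the conditions overlapped in both. The summed antenna FPKM over that of photosystem I overlapped between the iron conditions in the wild type, at 4.21, 4 and 3.89 and 4.07, 4.41 and 4.32, and was higher under deficiency without overlap in clf, at 3.81, 3.63 and 3.71 and 3.94, 3.85 and 4.01. Over photosystem II the antenna ratio was lower under deficiency without overlap in the wild type, at 4.27, 4.12 and 4.37 and 3.36, 3.97 and 3.65, and overlapped in clf, at 3.55, 3.39 and 3.77 and 3.17, 3.18 and 3.44.

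Paralogue genes of one subunit did not always keep their proportion. In the wild type the FPKM of PSAD1 over that of PSAD2 was 1.42, 1.38 and 1.45 on sufficient iron and 2.23, 2.27 and 2.26 on deficient iron. In clf the ratio was 1.42, 1.4 and 1.45 and 1.81, 1.94 and 2.05. On sufficient iron the genotypes overlapped, and on deficient iron all 3 clf libraries lay below the 3 wild-type ones. The ratio of LHCB1.2 to LHCB1.3 was 0.476, 0.477 and 0.513 and 0.635, 0.705 and 0.739 in the wild type and 0.463, 0.488 and 0.485 and 0.583, 0.574 and 0.593 in clf, higher under deficiency without overlap in both genotypes. PSBQ1 over PSBQ2 was 1.03, 1.01 and 0.975 and 1.12, 1.22 and 1.25 in the wild type and 1.1, 1.02 and 0.915 and 1.2, 1.16 and 1.14 in clf, again higher under deficiency without overlap. The ratio of LHCB2.1 to LHCB2.2 separated the genotypes, at 1.39, 1.39 and 1.4 in the wild type against 1.5, 1.5 and 1.46 in clf on sufficient iron, and 1.47, 1.39 and 1.55 against 1.58, 1.64 and 1.82 on deficient iron. Between the iron conditions that ratio overlapped in the wild type and was higher under deficiency without overlap in clf. LHCB4.1 over LHCB4.2 went the other way, at 0.798, 0.795 and 1.09 and 0.623, 0.768 and 0.618 in the wild type, lower under deficiency without overlap, and at 0.762, 0.746 and 0.992 and 0.635, 0.625 and 0.818 in clf, where it overlapped. The remaining 5 of the 10 pairs examined, LHCB1.1 over LHCB1.2, LHCB1.1 over LHCB1.3, PSAE1 over PSAE2, PSAH1 over PSAH2 and PSBO1 over PSBO2, overlapped between the iron conditions in both genotypes. In each of these, 3 libraries against 3 allow no exact permutation p below 0.1, so none is given. LHCB4.1 over LHCB4.2 and PSBO1 over PSBO2 were highest within each group in the library with high evening clock genes.

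**Figure D4:**
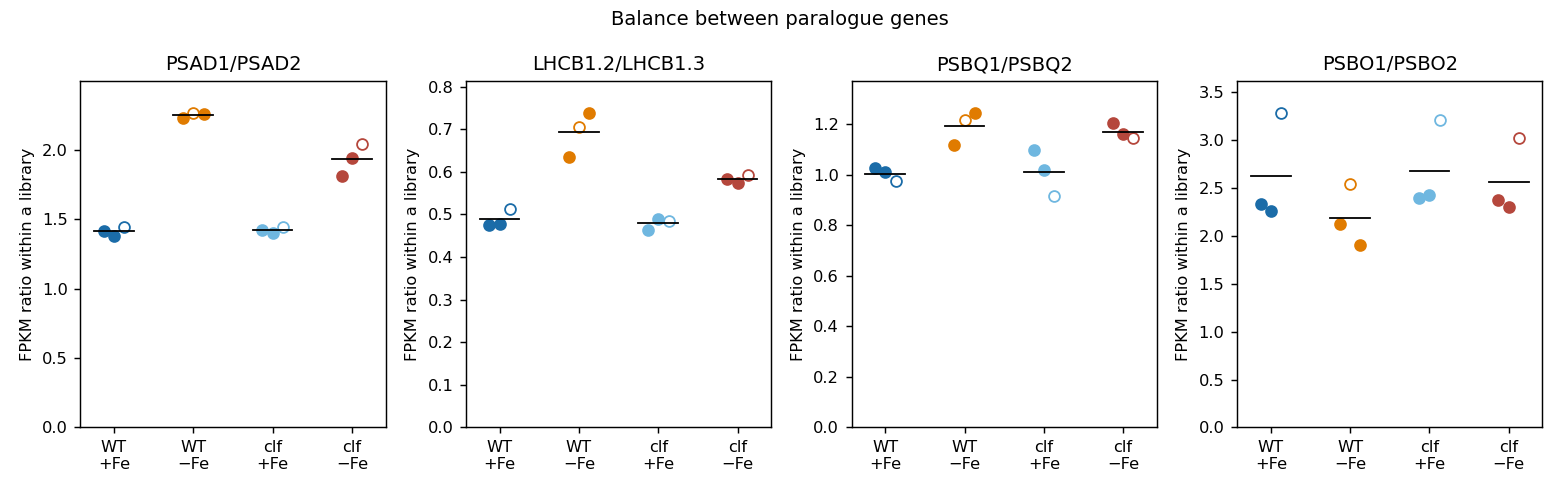
Ratio of the deposited FPKM of 2 paralogue genes within each library, for 4 pairs, with group means as lines and each axis starting at 0. Open points are the 4 libraries with high evening clock genes. PSAD1 over PSAD2 lies at 1.38 to 1.45 in the sufficient wild-type libraries and at 2.23 to 2.27 in the deficient ones, whereas PSBO1 over PSBO2 is highest at the open point of each group.

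Sequences around the annotated start are shown for genes with clear contrasts, to set the paralogues side by side. PSAD1 and PSAD2 share 88% of aligned coding bases and 58.1% of aligned window bases. LHCB1.2 and LHCB1.3 share 96.4% and 61.3%. Also shown are PSAF with the largest fall, LHCA4 and PSBQ2, called lower in both genotypes, and PSBS without a fall. Identity between windows depends on where each start is annotated. A stretch in the last 50 bases of the LHCB1.2 window nearly matches one upstream of the annotated LHCB1.1 start. The LHCB1 windows therefore need not cover the same part of each gene. Each run is 300 bases of the TAIR10.1 assembly from RefSeq, from 250 bases before to 50 bases after the annotated start of the gene, written 5′ to 3′ along the gene. Capitals mark matches, on either strand, to the G-box CACGTG, the I-box GATAAG, the motif CCAATC, which holds a CCAAT box, the CCA1-binding site AAAAATCT and the evening element AAAATATCT.
PSAD1: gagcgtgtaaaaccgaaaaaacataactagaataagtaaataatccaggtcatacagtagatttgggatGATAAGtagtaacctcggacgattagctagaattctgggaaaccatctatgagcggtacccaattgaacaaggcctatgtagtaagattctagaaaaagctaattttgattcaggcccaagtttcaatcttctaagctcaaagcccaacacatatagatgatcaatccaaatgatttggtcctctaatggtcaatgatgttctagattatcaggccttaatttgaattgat
PSAD2: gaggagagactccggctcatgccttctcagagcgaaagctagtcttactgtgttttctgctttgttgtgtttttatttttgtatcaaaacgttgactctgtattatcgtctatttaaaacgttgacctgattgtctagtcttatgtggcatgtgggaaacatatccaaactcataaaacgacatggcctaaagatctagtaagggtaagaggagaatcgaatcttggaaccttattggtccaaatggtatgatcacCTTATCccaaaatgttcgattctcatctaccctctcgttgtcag
LHCB1.2: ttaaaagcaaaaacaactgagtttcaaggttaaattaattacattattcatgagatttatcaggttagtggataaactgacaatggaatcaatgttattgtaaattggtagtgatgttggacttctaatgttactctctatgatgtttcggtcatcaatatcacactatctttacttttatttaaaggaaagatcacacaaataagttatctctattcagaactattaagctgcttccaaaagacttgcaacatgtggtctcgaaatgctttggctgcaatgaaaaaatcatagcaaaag
LHCB1.3: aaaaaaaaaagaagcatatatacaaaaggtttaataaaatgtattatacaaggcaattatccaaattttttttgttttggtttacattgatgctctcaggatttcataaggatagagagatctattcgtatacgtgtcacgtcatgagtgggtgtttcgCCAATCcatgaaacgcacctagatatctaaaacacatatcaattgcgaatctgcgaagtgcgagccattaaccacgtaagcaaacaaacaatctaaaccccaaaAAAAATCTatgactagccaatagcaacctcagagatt
PSAF: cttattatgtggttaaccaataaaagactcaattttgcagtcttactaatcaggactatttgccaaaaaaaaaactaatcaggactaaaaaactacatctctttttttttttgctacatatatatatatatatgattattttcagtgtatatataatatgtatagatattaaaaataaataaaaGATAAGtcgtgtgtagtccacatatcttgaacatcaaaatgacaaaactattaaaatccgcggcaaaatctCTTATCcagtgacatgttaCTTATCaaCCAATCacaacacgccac
LHCA4: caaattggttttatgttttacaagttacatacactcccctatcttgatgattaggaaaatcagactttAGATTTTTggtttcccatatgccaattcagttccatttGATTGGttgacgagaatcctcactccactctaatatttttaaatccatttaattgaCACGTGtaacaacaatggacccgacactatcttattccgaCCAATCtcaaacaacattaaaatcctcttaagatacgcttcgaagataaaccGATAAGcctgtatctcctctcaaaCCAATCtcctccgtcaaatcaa
PSBQ2: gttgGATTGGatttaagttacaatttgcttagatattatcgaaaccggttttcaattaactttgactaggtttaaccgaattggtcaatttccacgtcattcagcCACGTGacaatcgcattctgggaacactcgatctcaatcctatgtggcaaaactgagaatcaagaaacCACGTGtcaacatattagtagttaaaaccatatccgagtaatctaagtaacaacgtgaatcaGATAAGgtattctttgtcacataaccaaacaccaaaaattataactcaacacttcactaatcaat
PSBS: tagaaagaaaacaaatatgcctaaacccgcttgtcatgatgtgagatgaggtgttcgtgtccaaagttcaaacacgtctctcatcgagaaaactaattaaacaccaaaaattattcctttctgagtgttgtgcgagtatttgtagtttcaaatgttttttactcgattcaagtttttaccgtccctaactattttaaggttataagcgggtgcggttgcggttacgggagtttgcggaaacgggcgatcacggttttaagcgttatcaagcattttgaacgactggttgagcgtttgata

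The windows are chr4:1230115-1230414, minus strand (PSAD1), chr1:754213-754512, minus strand (PSAD2), chr1:10473453-10473752, minus strand (LHCB1.2), chr1:10477635-10477934, plus strand (LHCB1.3), chr1:11216092-11216391, minus strand (PSAF), chr3:17494984-17495283, minus strand (LHCA4), chr4:2673194-2673493, minus strand (PSBQ2) and chr1:16869971-16870270, plus strand (PSBS). PSAF held 3 I-boxes, 2 of them in the first 50 transcribed bases, LHCA4 held a G-box and 3 CCAATC matches, and PSBQ2 held 2 G-boxes, whereas LHCB1.2 and PSBS held none of the 5 motifs in this window. Bases beyond the windows were not searched, so an absence depends on where the start is annotated. Over the 37 members, the G-box was found in 13 (35.1%) against 7.68% of 27437 promoters of the same length, the I-box in 18 (48.6%) against 14.6%, and CCAATC in 14 (37.8%) against 12.4%. The AAAAATCT element was found in 5 (13.5%) against 7.88%, the evening element in 0 against 2.82%, and the TATA box TATAAA, not capitalised, in 15 (40.5%) against 52.2%. By class, CCAATC was in 9 of 14 antenna promoters (64.3%), 1 of 12 for photosystem I (8.33%) and 3 of 10 for photosystem II (30%). In the same order, the I-box was in 6 of 14 (42.9%), 8 of 12 (66.7%) and 3 of 10 (30%). The G-box was in 3 of 14 (21.4%), 4 of 12 (33.3%) and 6 of 10 (60%). These are matches of letters and not measured binding.

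The loss of CLF was compared at each iron level. On sufficient iron no member was called in clf against the wild type, when 1.32% of the genes tested were called lower and 3.59% higher. At an unadjusted p under 0.05, 18 members were lower and none higher, against 7.83% of all genes, and CPM values did not overlap for 21 members, all lower in clf, against 10.6%. The log2 fold change was negative for 36 of 37 members, PSBS being the exception, with a median of -0.35 beside -0.01 over all genes. LHCB1.2 (log2 fold change -0.71, SE 0.246, adjusted p 0.139) and LHCB1.3 (log2 fold change -0.68, SE 0.22, adjusted p 0.114) had the largest differences, LHCB1.1 had the smallest adjusted p (log2 fold change -0.46, SE 0.124, adjusted p 0.0651), and PSAF (-0.41), PSAN (-0.44) and PETC (-0.21) were in the same direction.

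This result depended on how the replicates were treated. Replicate 3 of both groups had high evening clock genes, so a replicate block also takes up that difference. Same-numbered libraries of the 2 genotypes on sufficient iron deviated together, and a fit of those 6 libraries with the replicate number as a block called 28 members lower, against 4.56% of genes tested, all but LHCB2.1, LHCB3, PSAH1, PSAL, PETC, PSBR, PSBS, PSBW and PSBX; in the 12-library fit with the block none was called. With a term for the 4 libraries with high evening clock genes 24 members were lower (5.74% of genes), without those libraries 6 were (4.05%; LHCA1, LHCB1.2, LHCB1.3, PSAE2, PSAG and PSAH2), and DESeq2 called 10 (3.03%). No fit called a member higher.

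On deficient iron no member was called in clf against the wild type either, when 2.46% of genes tested were lower and 4.01% higher. At an unadjusted p under 0.05, 4 members were lower, against 9.28% of genes, and 1 was higher, against 10.4%. CPM values lay without overlap for 6 members lower in clf (12.3% of all genes) and 1 higher (12.7%), and the median log2 fold change was -0.15. The higher member was PSAF, at 656, 749 and 568.5 CPM in the wild type and 1057, 920.4 and 918 CPM in clf (log2 fold change 0.55, SE 0.214, adjusted p 0.175). Without the 4 libraries with high evening clock genes PSAF was called higher in clf (log2 fold change 0.69, adjusted p 0.00377), when 9.18% of genes were, and no member lower. With a term for those libraries PSAF was again the 1 member called higher (8.72% of genes), and 5 were called lower (7.71% of genes): LHCA1, LHCB1.2, LHCB3, PSAG and PSBY, with log2 fold changes from -0.49 to -0.24.

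The test of the difference itself, the iron response in clf minus that in the wild type, called none of the 37 members; over all genes 0.00522% were called higher and 0% lower. At an unadjusted p under 0.05, 3 members were higher, against 3.43% of genes: PSAF (log2 fold change 0.96, SE 0.302, adjusted p 0.527), PSAD2 (log2 fold change 0.46, SE 0.166, adjusted p 0.619) and PSAN (log2 fold change 0.73, SE 0.281, adjusted p 0.636). The interaction was positive for 35 of 37 members, with a median of 0.22 beside -0.01 over all genes. These are the same 35 members whose iron response was more negative in the wild type, so the count is no separate result. The interaction also shares the libraries of both genotypes on sufficient iron with the comparison of the genotypes there. For each gene it equals the log2 fold change of clf over the wild type on deficient iron minus that on sufficient iron. It is therefore not separate from those comparisons. Without the 4 libraries with high evening clock genes, and so with fewer libraries in each group, PSAF was called (log2 fold change 1.01, edgeR adjusted p 0.0329). In that fit 0.345% of genes were called higher. With a term for those libraries PSAF was not called (log2 fold change 0.97, edgeR adjusted p 0.0666).

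**Figure D5:**
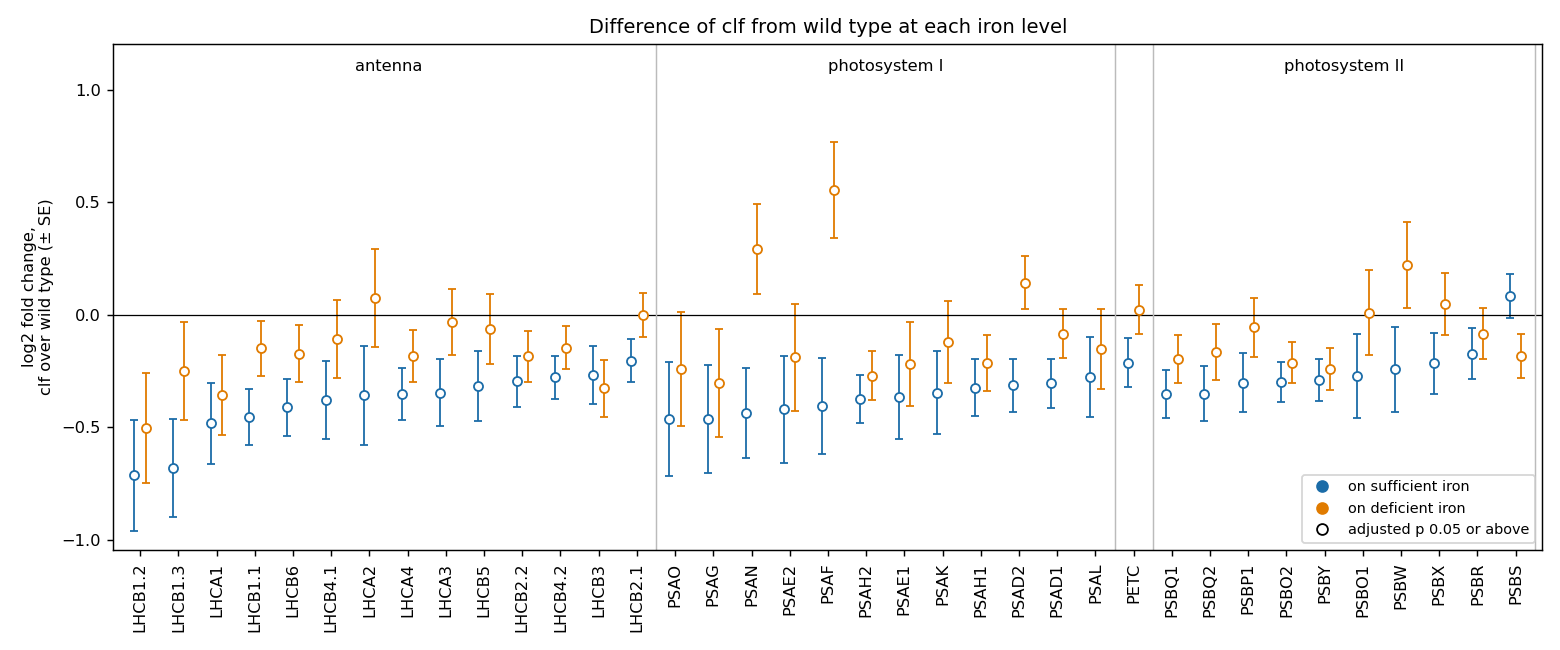
Log2 fold change of each member in clf over the wild type on sufficient and on deficient iron, with the standard error of the edgeR fit on 3 libraries a group, ordered within each class by the value on sufficient iron. No point passed an adjusted p of 0.05. On sufficient iron 36 of 37 values are below 0, and on deficient iron PSAF lies highest at 0.55.

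Related genes outside the 37 were described by lists of related function. Their counts stand beside the 4.52% of all genes tested that fell under deficiency in the wild type and the 0.768% in clf. Of 13 further photosystem and antenna genes, 6 fell in the wild type and 5 in clf, among them LHCB2.3 (AT3G27690), a further trimer gene (-1.12 and -1.20), and PSBTN, a small photosystem II subunit (-1.49 and -0.93). LHCB1.5 stood at 16690, 16860 and 26900 CPM on sufficient and 10370, 17420 and 12550 CPM on deficient iron in the wild type, groups that overlapped, and was not called there (log2 fold change -0.58, adjusted p 0.262) or in clf (log2 fold change -0.35, adjusted p 0.663). LHCB1.4 was not called either (log2 fold changes -1.12 and -1.10, adjusted p 0.231 and 0.378). LHCB2.3 was also lower in clf than in the wild type on sufficient (log2 fold change -0.67, SE 0.113, adjusted p 0.008) and deficient iron (log2 fold change -0.74, SE 0.113, adjusted p 0.00419), while LHCB2.1 and LHCB2.2 were not called; whether they differ from LHCB2.3 in this was not tested. LHCB4.3 (AT2G40100), a low-abundance gene of the CP29 family at 7.9, 8.25 and 12 CPM in the wild type and 21, 24.9 and 21.1 CPM in clf on sufficient iron, was higher in clf (log2 fold change 1.26, SE 0.212, adjusted p 0.00794). It was higher on deficient iron as well (log2 fold change 1.46, SE 0.216, adjusted p 0.00354).

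Of 13 genes of electron transport, 4 fell in the wild type and 1 in clf. FD2, the main leaf ferredoxin, fell in both (-2.34 and -1.39, adjusted p 8.96e-05 and 0.00735), while PETM, a small cytochrome b6f subunit, fell in the wild type (-2.0) and PETE2, plastocyanin, fell there by 0.50. Of 10 genes of carbon fixation, 1 fell in each genotype, HCEF1, a plastid fructose bisphosphatase (-0.45 and -0.48); a single call in 10 genes is no result about that list. Of 11 genes for antenna insertion and photosystem assembly, 3 fell in the wild type, CPSRP54 (-0.79), ALB3 (-0.55) and CPFTSY (-0.39), which deliver and insert LHC proteins into the thylakoid, and none in clf. Of 10 regulators, 2 fell in the wild type, the plastid sigma factor genes SIG2 (-0.49) and SIG1 (-1.54), and none in clf, again too few to say anything about the list.

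Some counts carry a limit from the annotation. Of the 37 members, 14 overlap another annotated gene, 13 of them one on the other strand, and the strand setting of the authors' counting was not given in the sources used here. Longest was the overlap for PSAH1 (788 bases), PSAG (479 bases), PSAE1 (436 bases) and LHCB6 (358 bases), while PSAF, PETC, PSBQ1, PSBQ2, PSBS and LHCB1.1 overlap none.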

How the data were processed

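Libraries were made with the TruSeq Stranded mRNA kit, per the labels' protocols. Reads were aligned with TopHat2 to TAIR10, per the submitters' processing notes; its version was not given in the sources used here, nor were the counting tool and strand setting. The count table, as deposited, holds unnormalized whole numbers. The deposited FPKM values were made by the authors: in 12911 of 12911 genes checked, counts divided by FPKM scaled with library totals (relative tolerance 1e-09). There was 1 unnamed column that was not used. Replicates were not duplicates (chi-square per gene 5.65 to 106, Spearman 0.936 to 0.992).

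Genes were filtered with filterByExpr (minimum count 10, total 15; 19148 of 32678 kept, all 37 members), scaled by TMM and fitted in edgeR 4.0.16 (R 4.3.3) by quasi-likelihood over 12 libraries in 4 groups without a block (8 residual degrees of freedom). P-values were Benjamini-Hochberg adjusted over all genes tested and called under 0.05. CPM values use TMM-scaled totals. Alternatives were library totals, DESeq2 1.42.0, limma 3.58.1 on log2(FPKM + 1) and log2(FPKM + 0.1), no filter, each library left out, the replicate block, and leaving out or adding a term for the 4 libraries with high evening clock genes.

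Whether replicate numbers pair the libraries was read from the data alone. Same-numbered deviations correlated at 0.18, 0.39 and 0.51 between the iron conditions in clf and 0.43, 0.29 and 0.64 between the genotypes on sufficient iron, and at 0.33, -0.46 and -0.63 and 0.19, -0.38 and -0.32 in the wild type and on deficient iron. The 6-library blocks were added after seeing the data. In both, replicate 3 of each group had high evening clock genes.

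The members and lists were chosen with earlier results of these data known. Per-library values are given for the 3 members of each class with the smallest p for the mean iron effect, for PETC, for paralogue pairs and for the 2 members with the largest p; lists name up to 3 called genes. Sequences, promoters and gene names come from the TAIR10.1 RefSeq assembly, and motifs were searched on both strands of 300 bases. Results for plastid-encoded genes are not reported here.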

Additional observations from a re-analysis of the deposited data

How the results depend on the processing

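Single members were followed through the alternatives in every comparison except the mean iron effect. In these no called value changed sign under any alternative run. Of the alternatives' values for single members, 3789 stayed on their side of the threshold, 141 gained a call and 214 lost one. Scaling to library totals or using limma on log2(FPKM + 1), log2(FPKM + 0.1) and log2(FPKM + 1) without a filter moved the member median of the wild-type iron response from -0.83 to -0.59, -0.59, -0.60 and -0.59, that in clf to -0.49, -0.49, -0.49 and -0.49, and the mean iron effect to -0.54, -0.53, -0.54 and -0.53. The first 3 of these settings called 1 member higher for the wild type (PSBS; 13, 13.3 and 13.3% of genes tested were) and for the mean effect (21.2, 21.7 and 21.5%), and the unfiltered limma fit called 17 members lower in the wild type (1.64%). In clf under iron deficiency, DESeq2 called 31 members lower (2.28% of genes tested), the 3 limma fits 10, 10 and 6 (0.648, 0.512 and 0.44%), a term for the 4 libraries with high evening clock genes 36 (4.19%) and the 6-library replicate block 29 (3.85%). For clf against the wild type on sufficient iron the counts lower were 10 with DESeq2 (3.03%), 6 without those 4 libraries (4.05%), 24 with the term (5.74%) and 28 with the 6-library block (4.56%). On deficient iron the term gave 5 lower (7.71%) and 1 higher (8.72%), and leaving the 4 libraries out gave 1 higher (9.18%), as it did for the interaction (0.345%). The 12-library replicate block gave 34, 16, 0, 0 and 0 members lower for the iron response in wild type and clf, clf on sufficient and deficient iron and the interaction (4.54, 0.695, 1.48, 2.48 and 0% of genes), and changed no other count by over 1.5 times. Leaving out 1 library gave 24 to 33 members lower in the wild type (24 of the 33 kept in all 12 fits; 2.45 to 4.91% of genes), 2 to 21 in clf (0.226 to 0.967%) and 33 to 36 for the mean effect (4.12 to 7.54%), with medians of -0.92 to -0.75, -0.70 to -0.58 and -0.78 to -0.71; for clf on sufficient and deficient iron and the interaction it gave none, with medians of -0.41 to -0.23, -0.19 to -0.06 and 0.13 to 0.32. In clf the count also fell by over 1.5 times on leaving out wild-type replicate 1 or 2 with sufficient iron, wild-type replicate 3 with deficient iron (12, 11 and 12) or clf replicate 1 with deficient iron (10). The cause of these changes was not tested. Precision is limited by 3 libraries a group. The common biological coefficient of variation over all genes tested was 0.308, and it was not estimated for the members alone.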
